A study of Mus musculus with 13 samples.

Results

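The histone and DNA methylation enzymes described here are 39 genes that encode methyltransferases and demethylases. Genes grouped under H3K36 methylation or the Polycomb complex PRC2 were left out, though the products of Kdm4c and Smyd2 also act on H3K36. The 39 were listed by the function of their products, with earlier results of these data known. All 39 were found among the 55421 genes of the deposited tables. All 39 also passed the filter on low counts, which left 19289 genes for testing. By class, the 39 comprised 8 H3K4 methyltransferases, with Kmt2e placed there by its family, 6 H3K9 methyltransferases and 4 methyltransferases of the DOT1L and SMYD families. The others were 2 LSD-type demethylases, 10 JmjC demethylases, 5 arginine methyltransferases and 4 DNA methylation enzymes.

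Libraries of mRNA of bulk hematopoietic stem and progenitor cells (HSPCs) from mouse bone marrow were sequenced in 4 genotypes. Wild type and Setd2 knockout had n = 2 libraries each. Srsf2 mutated cells had n = 3, as had cells with both changes (Setd2 knockout and Srsf2 mutated), called double mutant below. For the single-cell samples of the same series, not analysed here, the labels name Mx1-Cre+ mice with the alleles Srsf2P95H/+ and Setd2fl/fl in a bone marrow transplant model 4 weeks after pIpC, an inducer of the Mx1 promoter. The allele, the sort, the transplant, the time, the age and the strain are not stated for the bulk libraries, nor is it stated whether replicates came from separate mice. The p-values below therefore measure the spread between these libraries, which may be technical.

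Methylation of histone lysines and arginines and of cytosines in DNA is laid down by methyltransferases that take the methyl group from S-adenosylmethionine. It is removed by demethylases that depend on flavin (the LSD type) or on iron and 2-oxoglutarate (the JmjC type), and methylated cytosine is oxidized by the TET enzymes. H3K4 methylation marks promoters and enhancers in use, H3K9 methylation marks silent chromatin, and H3K79 methylation by DOT1L marks transcribed genes. Several of these enzymes are known from blood formation: KMT2A is rearranged in leukemia, TET and DNMT enzymes are mutated in myeloid neoplasms, and LSD1 acts with the repressors GFI1 and GFI1B.

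RefSeq promoter windows of GRCm38.p6, taken as the 250 bases before a transcript start, were matched for 31 of the 39 genes, in 39 windows. Not matched were Setd1b, Kmt2b, Kmt2e, Smyd3, Kdm3b, Kdm5a, Kdm6b and Carm1. The windows below belong to the JmjC genes Kdm7a and Jmjd1c, which had the widest gains among the matched genes, and to the DNA methylation genes Dnmt3b and Tet1, which like Dnmt1 were lowest in the double mutant. They are written 5′ to 3′ on the gene's strand, with each CG dinucleotide in capitals. The Kdm7a window lies at chr6:39206774-39207023 on the minus strand, that of Jmjd1c, the first of 2 in the table, at chr10:67126838-67127087 on the plus strand, that of Dnmt3b at chr2:153649199-153649448 on the plus strand and that of Tet1 at chr10:62887325-62887574 on the minus strand. For Jmjd1c and Tet1 the window precedes a start inside the longer gene model of GENCODE M21.
Kdm7a: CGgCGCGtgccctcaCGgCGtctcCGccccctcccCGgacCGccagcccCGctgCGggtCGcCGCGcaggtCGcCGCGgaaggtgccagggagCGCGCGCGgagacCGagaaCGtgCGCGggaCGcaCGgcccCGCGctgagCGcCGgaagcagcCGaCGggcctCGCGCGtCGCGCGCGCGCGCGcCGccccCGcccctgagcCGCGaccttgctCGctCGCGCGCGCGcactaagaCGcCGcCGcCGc
Jmjd1c: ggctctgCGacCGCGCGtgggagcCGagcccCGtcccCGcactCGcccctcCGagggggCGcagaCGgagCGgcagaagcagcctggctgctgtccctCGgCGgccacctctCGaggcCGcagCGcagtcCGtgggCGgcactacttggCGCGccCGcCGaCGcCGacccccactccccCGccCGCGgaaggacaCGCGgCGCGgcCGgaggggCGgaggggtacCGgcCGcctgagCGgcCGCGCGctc
Dnmt3b: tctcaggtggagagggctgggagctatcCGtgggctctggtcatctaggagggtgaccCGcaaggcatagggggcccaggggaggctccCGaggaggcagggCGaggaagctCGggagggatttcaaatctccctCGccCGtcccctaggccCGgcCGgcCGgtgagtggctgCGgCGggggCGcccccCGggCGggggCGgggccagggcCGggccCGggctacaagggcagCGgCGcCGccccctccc
Tet1: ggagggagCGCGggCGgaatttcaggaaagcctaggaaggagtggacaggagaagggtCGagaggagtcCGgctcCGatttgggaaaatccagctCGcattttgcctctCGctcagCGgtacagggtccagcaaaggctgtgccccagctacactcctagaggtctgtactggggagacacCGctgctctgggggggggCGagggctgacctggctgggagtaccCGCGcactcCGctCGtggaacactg
The Kdm7a window held 56 CG dinucleotides, the largest number among the 39 windows. Those of Jmjd1c, Dnmt3b and Tet1 held 40, 21 and 15, and the second Jmjd1c window, not printed, held 11. The median was 21 over the windows of these enzymes and 6 over all 32851 windows of the same length. The AP-1 motif TGANTCA, searched on both strands, was found in 1 of the 39 windows, that of Kdm3a, which is 2.56% against 6.75% of all windows. A CCAAT box, searched on both strands, was found in 12 (30.8%, against 33.8% of all), and an NF-kB motif in 5 (12.8%, against 7.25% of all). Of the printed windows, that of Dnmt3b held the NF-kB motif and those of Kdm7a, Jmjd1c and Tet1 held none of the 3 motifs, and a match or its lack describes only these bases.

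Total counts per library ran from 32117387 to 50445434. All 6 HSPC marker genes (Kit, Cd34, Myb, Runx1, Spi1 and Gata2) were detected in every group, and their summed level was 1861 to 1949 TMM-scaled CPM (counts scaled to a common library size) in wild type, 1781 to 1804 in Setd2 knockout, 1335 to 1369 in Srsf2 mutated and 1065 to 1079 in double mutant libraries. Erythroid markers summed to 186 to 188, 593 to 595, 5766 to 7489 and 20269.9 to 21811 CPM in the same order, and early neutrophil markers to 26312 to 26698, 14249 to 15387, 9181 to 10784 and 7246 to 7409 CPM. Marker levels of these cell types thus moved with genotype, and in bulk libraries fewer cells of a type and less RNA per cell cannot be told apart. Setd2 stood at 151.7, 221.7, 197.1 and 130.4 CPM and Srsf2 at 263.4, 323.4, 231.2 and 223.4 CPM in these groups. From wild type to the libraries labelled Setd2 knockout, counts of Setd2 rose (0.55 ± 0.121 SE on the log2 scale, adjusted p = 0.00204 by edgeR), against the direction of the label. They fell from Srsf2 mutated to double mutant (-0.60 ± 0.0988, adjusted p = 0.000182). Counts over a whole gene do not show whether exons are deleted, so they check neither genotype, and Setd2 loss below means the label. The libraries also differed in sex-linked genes: Xist made up all of the 472 to 499 CPM of the sex-linked list in wild type. The list summed to 0.562 to 0.635 CPM in Setd2 knockout, and genes of the Y chromosome were at 0 in both. In Srsf2 mutated and double mutant libraries, where Y genes were present, it summed to 203 to 217 and 212 to 219.8 CPM. Between these 2 groups Xist still differed, at 1.78 ± 0.655 and 7.41 ± 0.565 CPM (2.06, adjusted p = 3.72e-08), as did the Y-linked Eif2s3y (-0.26, adjusted p = 0.0197). Levels of sex-linked genes and genotype thus cannot be told apart in any comparison, although Y genes were present in both groups of that of double mutant with Srsf2 mutated.

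Srsf2 mutated replicate 3 differed from replicates 1 and 2 by gene length. Length here is that of the deposited tables, which for the enzymes is the number of exon bases and not the genomic span. Over all tested genes longer than 8000 bases its median log2 difference from them was -0.20, and over genes of up to 1500 bases it was 0.22. The enzymes followed this pattern, as 19 of 19 longer than 8000 bases were lower in replicate 3 than in the mean of replicates 1 and 2 (median -0.45), against 14 of 20 shorter ones (median -0.07). Across the 39 genes the log2 difference went with length (Pearson's r = -0.74 on log10 length, Spearman's rho = -0.73, given as a description since the genes share the libraries). Kmt2a was at 230.1, 238 and 123 CPM in replicates 1, 2 and 3, and Kmt2c at 126, 131 and 74.5 CPM. Values without this library are given beside some of the results it decides.

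**Figure D1:**
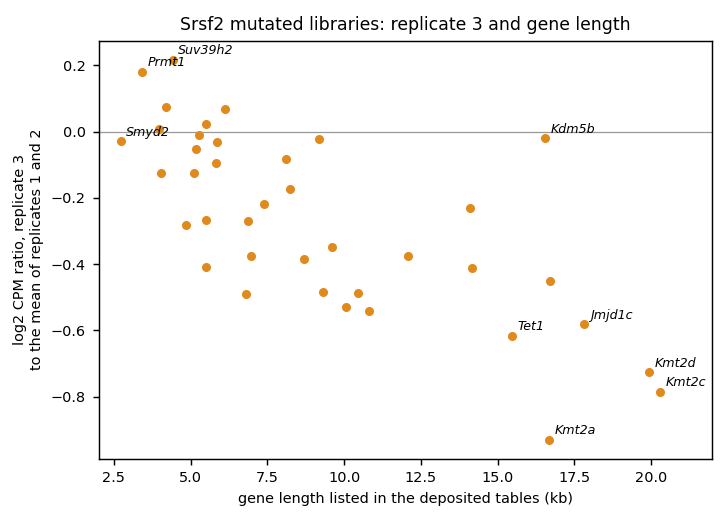
Each point is 1 of the 39 enzymes: the log2 ratio of its CPM in Srsf2 mutated replicate 3 to the mean of replicates 1 and 2, against the gene length (exon bases) in the deposited tables in kb. All 19 genes longer than 8000 bases lie below 0, with Kmt2a, Kmt2c and Kmt2d lowest.

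Levels between genes were compared within a group by FPKM, which divides by gene length. In wild type the maintenance DNA methyltransferase Dnmt1 was the most abundant at 90.3 ± 4.28 FPKM (SD, n = 2), followed by the arginine methyltransferase Prmt1 at 68.9 ± 3.70 and the H3K9 methyltransferase Ehmt2 at 54.0 ± 2.01. Tet1 was the least abundant at 1.32 ± 0.0157 FPKM. Many neighbours in this order could not be separated by their spread, such as Kmt2b at 13.7 ± 0.568 and Prmt7 at 13.6 ± 0.0685 FPKM. In double mutant libraries Prmt1 (53.7 ± 1.35 FPKM, n = 3) and Dnmt1 (51.6 ± 0.654) led, and Kdm6b stood at number 3 with 39.1 ± 2.16, where it had been number 24 in wild type at 7.21 ± 0.677. Kdm7a moved from number 31 (4.94 ± 0.236 FPKM) to number 5 (25.4 ± 0.494), and Jmjd1c from number 30 (5.26 ± 0.647) to number 13 (14.9 ± 0.240). Tet1 was last in all 4 groups, with 0.439 ± 0.0419 FPKM in the double mutant.

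More of the enzymes were lower than higher in the 3 comparisons in which the Srsf2 mutation was present, and most changes were small. The call required an adjusted p under 0.05 in edgeR's quasi-likelihood test with Benjamini-Hochberg adjustment over all 19289 genes. Fold changes below are on the log2 scale with the standard error (SE) of the fit. Between Setd2 knockout and wild type, 11 of the 39 enzymes (28.2%) were called, 6 higher and 5 lower. Of all tested genes 38.6% were called (18.7% higher and 19.9% lower). Between Srsf2 mutated and wild type, 23 (59.0%) were called against 56.3% of all genes, with 6 higher (28.5% of all genes). The 17 lower ones made up 43.6% of the enzymes, against 27.8% of all genes. Between double mutant and Srsf2 mutated, 19 (48.7%) were called against 33.8% of all genes, 6 of them higher (17.8% of all genes). The 13 lower ones made up 33.3%, against 15.9% of all genes. Between double mutant and Setd2 knockout, 26 (66.7%) were called against 51.8%, 5 of them higher (26% of all genes). The 21 lower ones made up 53.8%, against 25.8% of all genes. With a stricter filter (minimum count 50), 59% of the enzymes and 65.7% of all genes were called in Srsf2 mutated against wild type. These shares were 46.2% and 44.2% in double mutant against Srsf2 mutated, and 64.1% and 65.6% in double mutant against Setd2 knockout. A higher share of calls among the enzymes than among all genes thus depended on the filter in Srsf2 mutated against wild type. The same held in double mutant against Setd2 knockout. In double mutant against Srsf2 mutated the enzymes' share stayed higher, but by less. The median log2 fold change of the enzymes was 0.08, -0.14, -0.06 and -0.34 in these 4 comparisons, beside 0.04, 0.08, 0.00 and 0.01 over all tested genes. Sizes were small for most: the median absolute log2 fold change was 0.19, 0.29, 0.22 and 0.37 for the enzymes and 0.46, 0.64, 0.34 and 0.60 for all tested genes. The latter include genes with far fewer counts than the enzymes, and sizes were not compared at like counts. A total of 32 enzymes (82.1%) were called in at least 1 of the 4 comparisons, against 77.2% of all tested genes. Ehmt2, Kdm3a, Phf2 and Prmt7 were called in all 4 (10.3%, against 10.6% of all tested genes), and Setd1a, Kmt2a, Kmt2e, Setd7, Suv39h2, Setdb2 and Tet3 in none.

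Several of these calls ended when a single library was left out, which also leaves fewer libraries to estimate the spread. Effects often stayed near their size. Without Setd2 knockout replicate 1, the log2 change from wild type was 0.382 for Dot1l (0.377 with it) and -0.267 for Suv39h1 (-0.262 with it). That of Prmt1 moved more, from -0.246 to -0.204. In Setd2 knockout against wild type the count was 4 without Setd2 knockout replicate 1, when 23% of all genes were called. It was 7 without Setd2 knockout replicate 2 (26.7% of all genes) and 7 without wild type replicate 1 (28.3%). Without Srsf2 mutated replicate 3 it was 18, which at 46.2% of the enzymes was near the 46.1% of all genes. With no filter on low counts it was 14 (35.9%), above the 25.3% of all genes, so the order of both shares depended on the filter and the libraries. Leaving out Setd2 knockout replicate 1 ended the calls of Dot1l, Ehmt2, Kdm3a, Prmt1, Prmt7, Setdb1 and Suv39h1 (adjusted p from 0.0507 to 0.286). The 4 called under each of 17 alternatives there were Kmt2b, Kmt2d, Jmjd1c and Phf2. With upper-quartile scaling the split in that comparison was 12 higher and 2 lower, and with a stricter filter 10 higher and 3 lower, in place of 6 and 5. Of the calls for the Srsf2 mutation alone, 18 of 23 were kept under each alternative. The same held for 13 of 19 calls in double mutant against Srsf2 mutated and 21 of 26 in double mutant against Setd2 knockout.

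**Figure D2:**
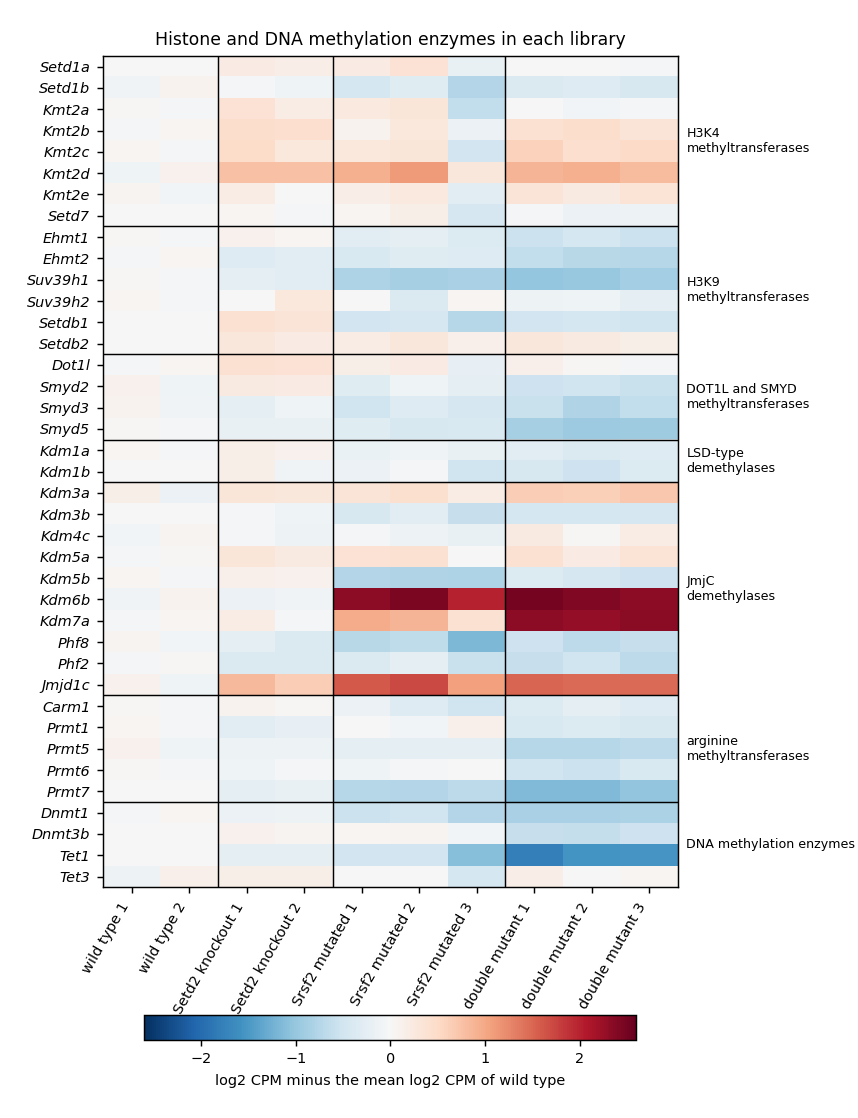
Colour shows each enzyme's log2 CPM in each of the 10 libraries minus its mean log2 CPM in wild type, with the enzymes grouped by class and the genotypes separated by vertical lines. The darkest red is Kdm6b in all 6 libraries with the Srsf2 mutation and Kdm7a in the double mutant, the darkest blue is Tet1 in the double mutant, and Srsf2 mutated replicate 3 is lower than its neighbours for the long genes.

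Few of the H3K4 methyltransferases passed the test, and the largest change among them was that of Kmt2d, an H3K4 monomethyltransferase of enhancers. Of the 8 genes, 2 were called higher and 0 lower in Setd2 knockout against wild type, 1 higher and 1 lower in Srsf2 mutated against wild type. The double mutant had 2 higher and 0 lower against Srsf2 mutated, and 0 higher and 1 lower against Setd2 knockout. Of all tested genes, 18.7% were higher and 19.9% lower in Setd2 knockout and 28.5% and 27.8% in Srsf2 mutated against wild type. In the double mutant these shares were 17.8% and 15.9% against Srsf2 mutated, and 26% and 25.8% against Setd2 knockout. They apply to each class below. Kmt2d (ENSMUSG00000048154, chromosome 15, 98831669 to 98871204 on GRCm38) stood at 189.6 and 219 CPM in wild type, 344 and 344 in Setd2 knockout, 389, 438 and 249.7 in Srsf2 mutated, and 379, 387 and 361 in double mutant libraries. Every library of the other 3 groups lay above both wild type libraries, and Srsf2 mutated replicate 3 was the lowest of its group. By the edgeR test it was higher in Setd2 knockout (log2 change 0.75 ± 0.170 SE, adjusted p = 0.00243) and in Srsf2 mutated libraries (0.81 ± 0.158, adjusted p = 0.000402) than in wild type. Double mutant and Srsf2 mutated libraries overlapped, at a log2 difference of 0.07 (adjusted p = 0.764), which turned to -0.14 without Srsf2 mutated replicate 3.

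Kmt2b, which methylates H3K4 at promoters, stood at 135 and 144 CPM in wild type, 192 and 189.7 in Setd2 knockout, 149, 169 and 125 in Srsf2 mutated, and 183, 191 and 175 in double mutant libraries. Both Setd2 knockout libraries and all 3 double mutant libraries lay above every wild type and Srsf2 mutated library. It was higher in Setd2 knockout than in wild type (0.45 ± 0.107, adjusted p = 0.00347) and in double mutant than in Srsf2 mutated ones (0.31 ± 0.0872, adjusted p = 0.0122). The second value was 0.20 without Srsf2 mutated replicate 3 (adjusted p = 0.0187), and its call ended without Srsf2 mutated replicate 1 (adjusted p = 0.0652) or double mutant replicate 2 (adjusted p = 0.0590). Kmt2c, the paralog of Kmt2d, stood at 108 and 101 CPM in wild type, 146 and 127 in Setd2 knockout, 126, 131 and 74.5 in Srsf2 mutated, and 159, 141 and 148 in double mutant libraries. The double mutant exceeded Srsf2 mutated libraries (0.43 ± 0.146, adjusted p = 0.0317), with Srsf2 mutated replicate 3 far below the rest. The difference was 0.21 without that library (adjusted p = 0.0210). The call ended under 8 of 17 alternatives, such as on leaving out Setd2 knockout replicate 1 or 2 or double mutant replicate 1, 2 or 3 (adjusted p from 0.0513 to 0.112). Setd1b was lower in Srsf2 mutated libraries (-0.50 ± 0.101, adjusted p = 0.000583) and in double mutant against Setd2 knockout (-0.30 ± 0.101, adjusted p = 0.0220), where the call ended on leaving out Setd2 knockout replicate 1 or double mutant replicate 1 or 3 (adjusted p from 0.0546 to 0.0754). Kmt2a differed from wild type by 0.03 in Srsf2 mutated libraries (adjusted p = 0.889), and by 0.28 without Srsf2 mutated replicate 3 (adjusted p = 0.00133). In Setd2 knockout libraries Kmt2a differed from wild type by 0.29 (adjusted p = 0.268). This difference passed the test without that Srsf2 mutated library (0.29, adjusted p = 0.00157).

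Of the 6 H3K9 methyltransferases, 4 were called lower in Srsf2 mutated against wild type and 4 lower in double mutant against Setd2 knockout, with 0 higher in either. The shares of all tested genes called lower there were 27.8% and 25.8%. In Setd2 knockout against wild type 1 was higher and 2 were lower, and in double mutant against Srsf2 mutated 0 were higher and 2 lower. Suv39h1 (ENSMUSG00000039231, chromosome X, 8061171 to 8074760), which trimethylates H3K9 in heterochromatin, stood at 123 and 118 CPM in wild type, 102 and 99.1 in Setd2 knockout, 68.9, 66.3 and 67.1 in Srsf2 mutated, and 59.7, 61.0 and 65.7 in double mutant libraries. Wild type was highest and the double mutant lowest, and no 2 groups overlapped. It was lower in Srsf2 mutated (log2 change -0.84 ± 0.0692 SE, adjusted p = 5.42e-08) and, by less, in Setd2 knockout libraries (-0.26 ± 0.0764, adjusted p = 0.0131) than in wild type. The double mutant was below Setd2 knockout (-0.69 ± 0.0695, adjusted p = 4.47e-07). The Setd2 knockout call ended on leaving out wild type replicate 1 or Setd2 knockout replicate 1 or 2 (adjusted p from 0.0701 to 0.120). Suv39h1 is on the X chromosome, and it shared 14.6% of its exon bases with another annotated gene. Its double mutant and Srsf2 mutated libraries, all of which had Y genes but differed in Xist as given above, differed by -0.12 (adjusted p = 0.175).

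Setdb1, which trimethylates H3K9 at retroelements together with TRIM28, stood at 93.4 and 95.1 CPM in wild type, 125 and 118 in Setd2 knockout, 66.8, 69.8 and 56.7 in Srsf2 mutated, and 66.3, 68.2 and 65.6 in double mutant libraries. Both Setd2 knockout libraries were above wild type and all 6 libraries with the Srsf2 mutation were below it. It was higher in Setd2 knockout (0.37 ± 0.0915, adjusted p = 0.00480) and lower in Srsf2 mutated libraries (-0.55 ± 0.0832, adjusted p = 3.89e-05) than in wild type. The double mutant was below Setd2 knockout (-0.87 ± 0.0827, adjusted p = 2.54e-07). The Setd2 knockout call ended on leaving out Setd2 knockout replicate 1 (adjusted p = 0.0507). Ehmt2 and Ehmt1 are the paired enzymes G9a and GLP that make most H3K9 dimethylation in euchromatin. Ehmt2 stood at 307 and 325 CPM in wild type, 251 and 261 in Setd2 knockout, 239.6, 253 and 250.5 in Srsf2 mutated, and 203, 191 and 189 in double mutant libraries, with wild type above every other library and the double mutant lowest. It was called lower in each comparison, with log2 fold changes of -0.30 in Setd2 knockout (adjusted p = 0.00355) and -0.35 in Srsf2 mutated (adjusted p = 0.000288). They were -0.35 in double mutant against Srsf2 mutated (adjusted p = 0.000217) and -0.40 in double mutant against Setd2 knockout (adjusted p = 9.01e-05). The call in Setd2 knockout ended on leaving out Setd2 knockout replicate 1 (adjusted p = 0.0677). Ehmt1 stood at 108 and 105 CPM in wild type, 115 and 109.9 in Setd2 knockout, 86.9, 90.8 and 83.9 in Srsf2 mutated, and 72.5, 77.2 and 72.6 in double mutant libraries. The 2 groups without the Srsf2 mutation lay above those with it, and the double mutant lay below Srsf2 mutated libraries (-0.24 ± 0.0628, adjusted p = 0.00817) and below Setd2 knockout (-0.60 ± 0.0692, adjusted p = 2.04e-06).

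Among the 4 genes of the DOT1L and SMYD families, the lowest levels were in the double mutant for all 3 SMYD genes but not for Dot1l. All 4 were called lower in double mutant against Setd2 knockout, and 2 were lower and 0 higher in double mutant against Srsf2 mutated. The shares of all tested genes called lower there were 25.8% and 15.9%. In Srsf2 mutated against wild type 3 were lower and 0 higher, and in Setd2 knockout against wild type 1 was higher and 0 were lower. Smyd5, a SET and MYND domain methyltransferase, stood at 78.3 and 75.6 CPM in wild type, 67.1 and 67.1 in Setd2 knockout, 61.7, 57.5 and 58.4 in Srsf2 mutated, and 42.3, 40.02 and 40.4 in double mutant libraries. The double mutant libraries lay below all others, with log2 differences of -0.53 against Srsf2 mutated (adjusted p = 9.93e-06) and -0.71 against Setd2 knockout (adjusted p = 5.17e-07). Smyd2, which methylates H3K36 and also p53, stood at 35.3 and 30.4 CPM in wild type, 38.6 and 37.9 in Setd2 knockout, 26.1, 30.2 and 27.6 in Srsf2 mutated, and 22.4, 22.9 and 22.02 in double mutant libraries. Its double mutant libraries were again the lowest, with log2 differences of -0.77 against Setd2 knockout (adjusted p = 3.40e-06) and -0.32 against Srsf2 mutated (adjusted p = 0.00775). Its call in Srsf2 mutated against wild type (-0.23 ± 0.0930, adjusted p = 0.0461) ended under 15 of 17 alternatives, such as on leaving out wild type replicate 1, Setd2 knockout replicate 1 or 2, Srsf2 mutated replicate 1 or 3 or double mutant replicate 1, 2 or 3 (adjusted p from 0.0580 to 0.390). Smyd2 shared 30.0% of its exon bases with another annotated gene. Dot1l, the H3K79 methyltransferase, stood at 149 and 159.7 CPM in wild type, 202 and 199 in Setd2 knockout, 170.5, 179 and 134 in Srsf2 mutated, and 168, 157 and 149 in double mutant libraries. Both Setd2 knockout libraries were above all others (0.38 ± 0.110, adjusted p = 0.0129 against wild type), and the double mutant lay below Setd2 knockout (-0.34 ± 0.0995, adjusted p = 0.00832). The first call ended on leaving out wild type replicate 1 or Setd2 knockout replicate 1 (adjusted p = 0.0867 and 0.0591).

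The LSD-type demethylases Kdm1a and Kdm1b, which act on H3K4, were both called lower in double mutant against Setd2 knockout, and in the other comparisons 1 call was made. Kdm1a (LSD1) stood at 109 and 102 CPM in wild type, 118 and 114 in Setd2 knockout, 93.6, 98.0 and 92.5 in Srsf2 mutated, and 86.1, 81.4 and 83.4 in double mutant libraries. The double mutant libraries lay below every other library, with log2 differences of -0.47 against Setd2 knockout (adjusted p = 2.25e-05) and -0.18 against Srsf2 mutated (adjusted p = 0.0328). The second call ended on leaving out Srsf2 mutated replicate 2 or double mutant replicate 1, 2 or 3 (adjusted p from 0.0564 to 0.131). Kdm1b was lower in double mutant than in Setd2 knockout libraries (-0.47 ± 0.128, adjusted p = 0.00584), a call that ended on leaving out Setd2 knockout replicate 1 (adjusted p = 0.0588).

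The JmjC demethylases held the largest gains. In Srsf2 mutated against wild type 5 of 10 were called higher and 4 lower, and in double mutant against Setd2 knockout 5 were higher and 3 lower. The shares of all tested genes called higher there were 28.5% and 26%, and those called lower 27.8% and 25.8%. In Setd2 knockout against wild type 2 were higher and 1 lower, and in double mutant against Srsf2 mutated 4 were higher and 1 lower. Kdm6b (ENSMUSG00000018476, chromosome 11, 69398508 to 69413675), a demethylase of H3K27 that inflammatory signals induce in macrophages, stood at 49.8 and 57.2 CPM in wild type, 48.1 and 49.8 in Setd2 knockout, 266, 291 and 215 in Srsf2 mutated, and 301, 282 and 268 in double mutant libraries. The 6 libraries with the Srsf2 mutation did not overlap the 4 without it, and all 6 stood far above them. Kdm6b was 4.81-fold higher in Srsf2 mutated libraries than in wild type (log2 change 2.27 ± 0.115 SE, adjusted p = 1.82e-10) and 5.79-fold higher in double mutant than in Setd2 knockout libraries (2.53 ± 0.116, adjusted p = 3.34e-11). Setd2 knockout and wild type libraries overlapped (-0.13, adjusted p = 0.419), as did double mutant and Srsf2 mutated libraries (0.14, adjusted p = 0.278). Of the genes of the immediate early and heat shock response, 8 of 9 were called higher in Srsf2 mutated against wild type. They summed to 1765 to 2894 CPM in wild type, 1919 to 2001 in Setd2 knockout, 5839 to 6399 in Srsf2 mutated and 5385 to 5438 in double mutant libraries. Their part in the Kdm6b difference was not tested.

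Kdm7a (ENSMUSG00000042599, chromosome 6, 39136623 to 39206789), a demethylase of H3K9 and H3K27, stood at 51.0 and 55.0 CPM in wild type, 60.3 and 51.9 in Setd2 knockout, 103, 97.7 and 69.6 in Srsf2 mutated, and 267, 260.0 and 271 in double mutant libraries. Double mutant libraries lay far above all others, Srsf2 mutated libraries lay between, and Setd2 knockout and wild type libraries overlapped. The double mutant exceeded Srsf2 mutated libraries 2.95-fold (log2 change 1.56 ± 0.112 SE, adjusted p = 1.81e-08) and Setd2 knockout 4.74-fold (2.25 ± 0.134, adjusted p = 8.99e-10). Srsf2 mutated libraries exceeded wild type by 0.77 ± 0.127 (adjusted p = 9.44e-05), while Setd2 knockout differed from wild type by 0.08 (adjusted p = 0.677). Erythroid markers rose from Srsf2 mutated to double mutant, with 11 of 11 called higher, as did late neutrophil markers, 8 of 8. Late neutrophil markers summed to 16347 to 22820 CPM in wild type and 5821 to 6365 in Setd2 knockout. They summed to 13816 to 17241 CPM in Srsf2 mutated and 31723 to 32417 in double mutant libraries. The part of either marker list in the Kdm7a difference was not tested.

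Jmjd1c (ENSMUSG00000037876, chromosome 10, 67096125 to 67256326), a large KDM3-family protein, stood at 108 and 91.5 CPM in wild type, 178 and 155 in Setd2 knockout, 302, 325 and 209 in Srsf2 mutated, and 283, 274 and 274 in double mutant libraries. All libraries of the other groups exceeded wild type, and those with the Srsf2 mutation exceeded those of Setd2 knockout. It was higher in Setd2 knockout (0.74 ± 0.150, adjusted p = 0.00106) and in Srsf2 mutated libraries (1.48 ± 0.143, adjusted p = 3.07e-07) than in wild type. The double mutant exceeded Setd2 knockout (0.73 ± 0.138, adjusted p = 0.000303). Double mutant and Srsf2 mutated libraries overlapped (-0.01, adjusted p = 0.971). Its family member Kdm3a, an H3K9 demethylase, stood at 61.4 and 50.4 CPM in wild type, 69.6 and 68.7 in Setd2 knockout, 70.1, 74.0 and 63.8 in Srsf2 mutated, and 86.6, 86.1 and 90.1 in double mutant libraries. The double mutant was highest, and the groups of each comparison were separate. Kdm3a was called higher in all 4 comparisons, by 0.31, 0.31, 0.34 and 0.34 (adjusted p = 0.0217, 0.00831, 0.00357 and 0.00452). Its call in Setd2 knockout ended on leaving out wild type replicate 2 or Setd2 knockout replicate 1 or 2 (adjusted p from 0.0765 to 0.254). That in Srsf2 mutated libraries ended on leaving out wild type replicate 2 (adjusted p = 0.178), and that in double mutant against Setd2 knockout ended on leaving out Setd2 knockout replicate 1 or 2 (adjusted p = 0.0743 and 0.0858).

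Kdm5b, Phf8, Phf2 and Kdm3b were lower in Srsf2 mutated libraries than in wild type. Kdm5b, a demethylase of H3K4, stood at 81.3 and 75.0 CPM in wild type, 85.6 and 84.8 in Setd2 knockout, 46.1, 45.2 and 45.03 in Srsf2 mutated, and 60.7, 57.4 and 54.1 in double mutant libraries. Its Srsf2 mutated libraries lay lowest and its double mutant libraries between them and the other groups. Kdm5b fell with the Srsf2 mutation, both from wild type (-0.78 ± 0.0752, adjusted p = 3.01e-07) and from Setd2 knockout (-0.57 ± 0.0750, adjusted p = 9.01e-06). It was higher in double mutant than in Srsf2 mutated cells (0.34 ± 0.0685, adjusted p = 0.00112). Phf8, an X-linked demethylase of H3K9 and H4K20, stood at 78.2 and 71.5 CPM in wild type, 62.8 and 57.7 in Setd2 knockout, 45.5, 47.6 and 33.3 in Srsf2 mutated, and 51.4, 46.9 and 49.6 in double mutant libraries. Wild type was highest and Srsf2 mutated replicate 3 lowest. It was lower in Srsf2 mutated than in wild type (-0.83 ± 0.118, adjusted p = 2.08e-05), where sex-linked state also differed. The difference of Setd2 knockout from wild type, -0.31, did not pass the test (adjusted p = 0.0691). It did so without Srsf2 mutated replicate 3, which enters the shared estimate of spread (adjusted p = 0.00329). The difference of double mutant from Setd2 knockout, -0.29 (adjusted p = 0.0514), also passed the test only without some libraries or settings, such as that library (-0.29, adjusted p = 0.00220). Phf2, its autosomal relative, stood at 131 and 135 CPM in wild type, 102 and 102 in Setd2 knockout, 103, 113 and 89.4 in Srsf2 mutated, and 87.3, 92.1 and 83.2 in double mutant libraries. Wild type exceeded every other library, and log2 fold changes were -0.38 in Setd2 knockout (adjusted p = 0.00485) and -0.39 in Srsf2 mutated (adjusted p = 0.00126). The further step to the double mutant was -0.22 from Srsf2 mutated (adjusted p = 0.0438), where the groups overlapped and the call ended on leaving out Srsf2 mutated replicate 1 or 2 or double mutant replicate 1, 2 or 3 (adjusted p from 0.0551 to 0.177). From Setd2 knockout the step was -0.22 (adjusted p = 0.0441), and the call ended on leaving out Setd2 knockout replicate 1 or 2 or double mutant replicate 1 or 3 (adjusted p from 0.0793 to 0.154) and with the replicate block (adjusted p = 0.0867). Kdm3b, an H3K9 demethylase, was lower in Srsf2 mutated than in wild type (-0.44 ± 0.0775, adjusted p = 0.000184) and in double mutant than in Setd2 knockout (-0.36 ± 0.0776, adjusted p = 0.000908). Kdm4c, which demethylates trimethylated H3K9 and H3K36, stood at 35.2 and 39.2 CPM in wild type, 35.8 and 34.1 in Setd2 knockout, 35.6, 33.7 and 32.4 in Srsf2 mutated, and 43.7, 38.2 and 42.5 in double mutant libraries. The double mutant exceeded Srsf2 mutated cells without overlap (0.29 ± 0.0806, adjusted p = 0.0110), and the call ended on leaving out double mutant replicate 1 (adjusted p = 0.0564). It was also higher than in Setd2 knockout (0.25 ± 0.0904, adjusted p = 0.0316), a call that ended on leaving out Setd2 knockout replicate 1 or 2, Srsf2 mutated replicate 1 or double mutant replicate 1 or 3 (adjusted p from 0.0776 to 0.336). Kdm5a, a demethylase of H3K4 like Kdm5b, was called higher in Srsf2 mutated libraries though they overlapped wild type (0.27 ± 0.105, adjusted p = 0.0403). The call ended under 9 of 17 alternatives, such as on leaving out wild type replicate 1 or 2, Setd2 knockout replicate 1 or 2, Srsf2 mutated replicate 1 or 2 or double mutant replicate 1 or 3 (adjusted p from 0.0526 to 0.177).

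**Figure D3:**
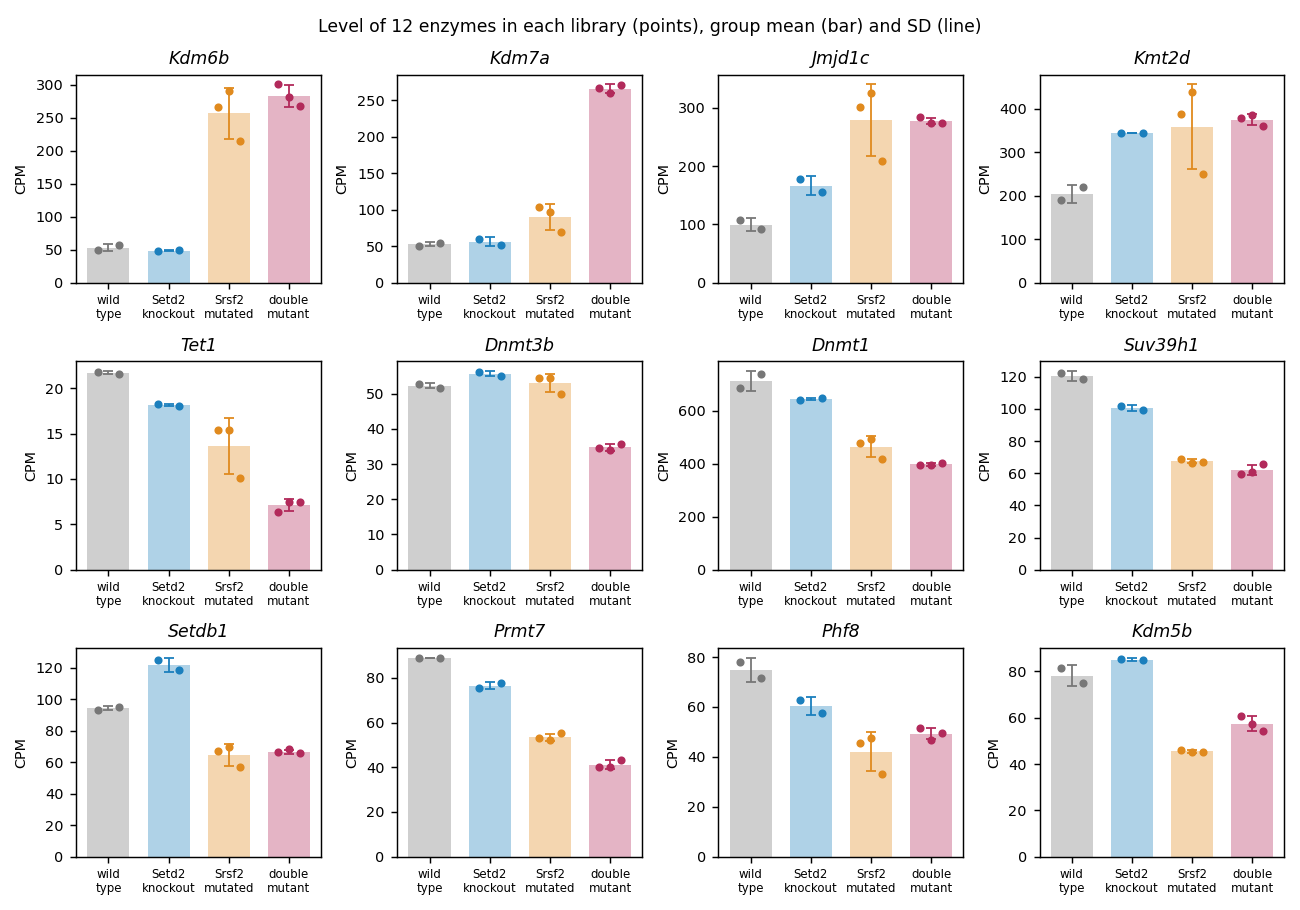
Points give the TMM-scaled CPM of each library for 12 enzymes, bars the group mean and lines the SD (n = 2 for wild type and Setd2 knockout, n = 3 for Srsf2 mutated and double mutant); each panel has its own axis, which starts at 0. Kdm6b separates the 6 libraries with the Srsf2 mutation from the 4 without it, whereas Kdm7a is highest in the double mutant libraries. Dnmt3b, Tet1, Dnmt1, Suv39h1 and Prmt7 are lowest in the double mutant libraries.

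Every call among the arginine methyltransferases was toward lower levels. Of the 5, 0 were called higher in any of the 4 comparisons, and 2, 3, 4 and 4 were called lower for Setd2 loss alone, the Srsf2 mutation alone, Setd2 loss on top of the Srsf2 mutation and the Srsf2 mutation on top of Setd2 loss. The shares of all tested genes called lower were 19.9%, 27.8%, 15.9% and 25.8% in the same order. Prmt7, which makes monomethylarginine, stood at 88.9 and 88.8 CPM in wild type, 75.4 and 77.8 in Setd2 knockout, 53.3, 52.1 and 55.2 in Srsf2 mutated, and 40.03, 40.1 and 43.4 in double mutant libraries. The 4 groups were separate, from wild type at the top to double mutant at the bottom. Prmt7 fell with the Srsf2 mutation from wild type (-0.73 ± 0.0724, adjusted p = 4.19e-07) and from Setd2 knockout (-0.90 ± 0.0728, adjusted p = 3.91e-08), and from Srsf2 mutated to double mutant (-0.38 ± 0.0665, adjusted p = 0.000324). Its call in Setd2 knockout (-0.21 ± 0.0799, adjusted p = 0.0449) ended under 11 of 17 alternatives, among them upper-quartile scaling (adjusted p = 0.245) and on leaving out wild type replicate 1 or 2, Setd2 knockout replicate 1 or 2, Srsf2 mutated replicate 1 or double mutant replicate 1, 2 or 3 (adjusted p from 0.0530 to 0.286). Prmt5, the main enzyme of symmetric arginine dimethylation, which also acts on proteins of the spliceosome, stood at 152 and 130.3 CPM in wild type, 129 and 128 in Setd2 knockout, 117, 118 and 118 in Srsf2 mutated, and 83.8, 83.7 and 87.8 in double mutant libraries. Double mutant libraries lay below all others, with log2 differences of -0.47 against Srsf2 mutated (adjusted p = 3.63e-05) and -0.60 against Setd2 knockout (adjusted p = 3.91e-06). Its smaller fall from wild type to Srsf2 mutated (-0.26 ± 0.0725, adjusted p = 0.00618) lost its call on leaving out wild type replicate 1 (adjusted p = 0.137). Prmt1, the main enzyme of asymmetric dimethylation, fell from Srsf2 mutated to double mutant (-0.41 ± 0.0657, adjusted p = 0.000140). It was also lower in Setd2 knockout than in wild type (-0.25 ± 0.0803, adjusted p = 0.0243). The latter call was lost with upper-quartile scaling (adjusted p = 0.143) and on leaving out wild type replicate 1 or Setd2 knockout replicate 1 or 2 (adjusted p from 0.0775 to 0.192). Prmt6 fell to the double mutant from Srsf2 mutated (-0.43 ± 0.0959, adjusted p = 0.00227) and from Setd2 knockout (-0.42 ± 0.106, adjusted p = 0.00356). Carm1, a coactivator of nuclear receptors, was lower in Srsf2 mutated than in wild type (-0.32 ± 0.0914, adjusted p = 0.00693), where the call ended on leaving out wild type replicate 1 (adjusted p = 0.0518), and in double mutant than in Setd2 knockout (-0.37 ± 0.0913, adjusted p = 0.00266).

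Of the 4 DNA methylation enzymes, 0 were called in Setd2 knockout against wild type, 2 were lower in Srsf2 mutated against wild type, and 3 were lower in each comparison of the double mutant with a single genotype. In none of these comparisons was 1 higher. The share of all tested genes called lower was 27.8% in Srsf2 mutated against wild type. It was 15.9% and 25.8% in double mutant against Srsf2 mutated and against Setd2 knockout. Dnmt1 (ENSMUSG00000004099, chromosome 9, 20907209 to 20959888), which copies methylation to new DNA, ranged over 684 to 737 CPM in wild type, 642 to 647 in Setd2 knockout, 418 to 493 in Srsf2 mutated and 393 to 403 in double mutant libraries. The groups did not overlap. The difference of Setd2 knockout from wild type, -0.14, did not pass the test (adjusted p = 0.185), but did so without Srsf2 mutated replicate 3 (adjusted p = 0.0485). Dnmt1 was lower in Srsf2 mutated than in wild type (log2 change -0.62 ± 0.0738 SE, adjusted p = 3.30e-06) and in double mutant than in Setd2 knockout (-0.70 ± 0.0737, adjusted p = 8.14e-07). The further step from Srsf2 mutated to double mutant (-0.22 ± 0.0668, adjusted p = 0.0172) ended on leaving out Srsf2 mutated replicate 2 or double mutant replicate 1 or 2 (adjusted p from 0.0614 to 0.0666). Markers of cell division, with which Dnmt1 is usually expressed, summed to 2386 to 2461, 2171 to 2266, 2008 to 2315 and 2681 to 2737 CPM in the 4 groups. Of these 8 markers, 7 were called lower in Srsf2 mutated against wild type, where Dnmt1 was lower too, and 4 were higher and 1 lower in double mutant against Srsf2 mutated. Their part in the Dnmt1 differences was not tested.

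Dnmt3b (ENSMUSG00000027478, chromosome 2, 153649450 to 153687730), which methylates unmethylated DNA, stood at 52.8 and 51.7 CPM in wild type, 56.2 and 55.2 in Setd2 knockout, 54.4, 54.6 and 49.99 in Srsf2 mutated, and 34.5, 34.0 and 35.8 in double mutant libraries. The double mutant libraries lay below every other library, while Srsf2 mutated libraries overlapped wild type. Dnmt3b fell to the double mutant from Srsf2 mutated (log2 change -0.61 ± 0.0694 SE, adjusted p = 3.99e-06) and from Setd2 knockout (-0.68 ± 0.0763, adjusted p = 1.60e-06). From wild type, Setd2 knockout libraries differed by 0.09 (adjusted p = 0.424) and Srsf2 mutated libraries by 0.02 (adjusted p = 0.845). Tet1 (ENSMUSG00000047146, chromosome 10, 62804570 to 62908996), which starts the removal of cytosine methylation, stood at 21.8 and 21.6 CPM in wild type, 18.2 and 18.1 in Setd2 knockout, 15.4, 15.4 and 10.0 in Srsf2 mutated, and 6.32, 7.44 and 7.49 in double mutant libraries. The 4 groups did not overlap, with wild type highest and the double mutant lowest. Tet1 fell from wild type to Srsf2 mutated (-0.67 ± 0.152, adjusted p = 0.00144), from there to the double mutant (log2 change -0.94 ± 0.144 SE, adjusted p = 8.81e-05), and from Setd2 knockout to the double mutant (-1.35 ± 0.156, adjusted p = 2.14e-06). The step from wild type to Setd2 knockout, -0.26, did not pass the test (adjusted p = 0.241). B lymphoid markers, all 10 of which fell from Srsf2 mutated to double mutant, summed to 126 to 144, 105 to 106, 1153 to 1221 and 316 to 331 CPM. Stem cell markers summed to 134 to 140.2, 149.7 to 152, 76.6 to 80.9 and 67.2 to 73.4 CPM. The part of either in these differences was not tested.

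Pairs of comparisons that share no library were set side by side. For the loss of Setd2, 6 enzymes were called in the same direction without and with the Srsf2 mutation, out of 11 and 19 calls, and 0 in opposite directions. That is 15.4% of the enzymes, against 10.5% of all tested genes called the same way in both, and 6.89% of all genes went in opposite directions. Kmt2b and Kdm3a were higher and Ehmt2, Phf2, Prmt1 and Prmt7 lower in both. For the Srsf2 mutation, 20 were called in the same direction without and with the loss of Setd2, out of 23 and 26, and 0 in opposite directions. That is 51.3% of the enzymes, against 32.3% of all tested genes, and 4.71% of all genes went in opposite directions. Kdm3a, Kdm6b, Kdm7a and Jmjd1c were higher in both (10.3%, against 15.6% of all genes), and 16 were lower (41%, against 16.7%), among them Suv39h1, Kdm5b, Prmt7, Dnmt1 and Tet1. These comparisons use separate libraries of each genotype, with the sex-linked differences given above. The shares of all genes here are those of the main filter. With the stricter filter, 59% of the enzymes and 65.7% of all genes were called in Srsf2 mutated against wild type. In double mutant against Setd2 knockout these shares were 64.1% and 65.6%. Calls in both comparisons of a pair were not counted under that filter.

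Whether Setd2 loss acted differently with and without the Srsf2 mutation was tested as the interaction, the difference between both effects. It was called for 13 of the 39 enzymes (33.3%), 3 higher and 10 lower, where 31.9% of all tested genes were called (16.7% higher and 15.2% lower). Its median was -0.16 over the enzymes and -0.07 over all tested genes. Kdm7a had the largest value, 1.48 ± 0.177 (adjusted p = 8.83e-06), from an effect of Setd2 loss of 0.08 without and 1.56 with the Srsf2 mutation. Dnmt3b had -0.70 ± 0.109, adjusted p = 0.000124, from effects of 0.09 and -0.61. Jmjd1c had -0.75 ± 0.192, adjusted p = 0.00700, from effects of 0.74 and -0.01, and Smyd2, with -0.54 ± 0.132, adjusted p = 0.00510, had an effect of -0.32 with the mutation. These 4 kept their call under each of the 16 alternatives run for the interaction. Tet1 (-0.68, adjusted p = 0.0265), Kmt2d (-0.69, adjusted p = 0.0244), Phf8 (0.54, adjusted p = 0.0231), Dot1l, Kdm4c, Smyd5, Prmt5, Kdm1a and Ehmt1 were also called and lost the call under at least 1. Kmt2d lost it with DESeq2 (adjusted p = 0.0744) and on leaving out wild type replicate 1 or double mutant replicate 3 (adjusted p = 0.104 and 0.0594). Of single libraries, leaving out wild type replicate 2 brought the count from 13 to 6 and ended the calls of Dot1l, Ehmt1, Kdm1a, Kdm4c, Prmt5, Smyd5 and Tet1 (adjusted p from 0.0547 to 0.150). It was 7 without Setd2 knockout replicate 1, which ended those of Dot1l, Ehmt1, Kdm1a, Kdm4c, Phf8 and Tet1 (adjusted p from 0.0545 to 0.125), 8 without double mutant replicate 1, which ended those of Ehmt1, Kdm4c, Phf8, Prmt5 and Tet1 (adjusted p from 0.0535 to 0.0792), and 19 without Srsf2 mutated replicate 3. With upper-quartile scaling the median of all genes moved from -0.07 to -0.21 and the split of calls from 3 higher and 10 lower to 1 higher and 16 lower. Setdb1 was just outside the threshold at -0.32 (adjusted p = 0.0522). It was called under 6 of the 16 alternatives, such as without Srsf2 mutated replicate 3 (-0.40, adjusted p = 0.000924).

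**Figure D4:**
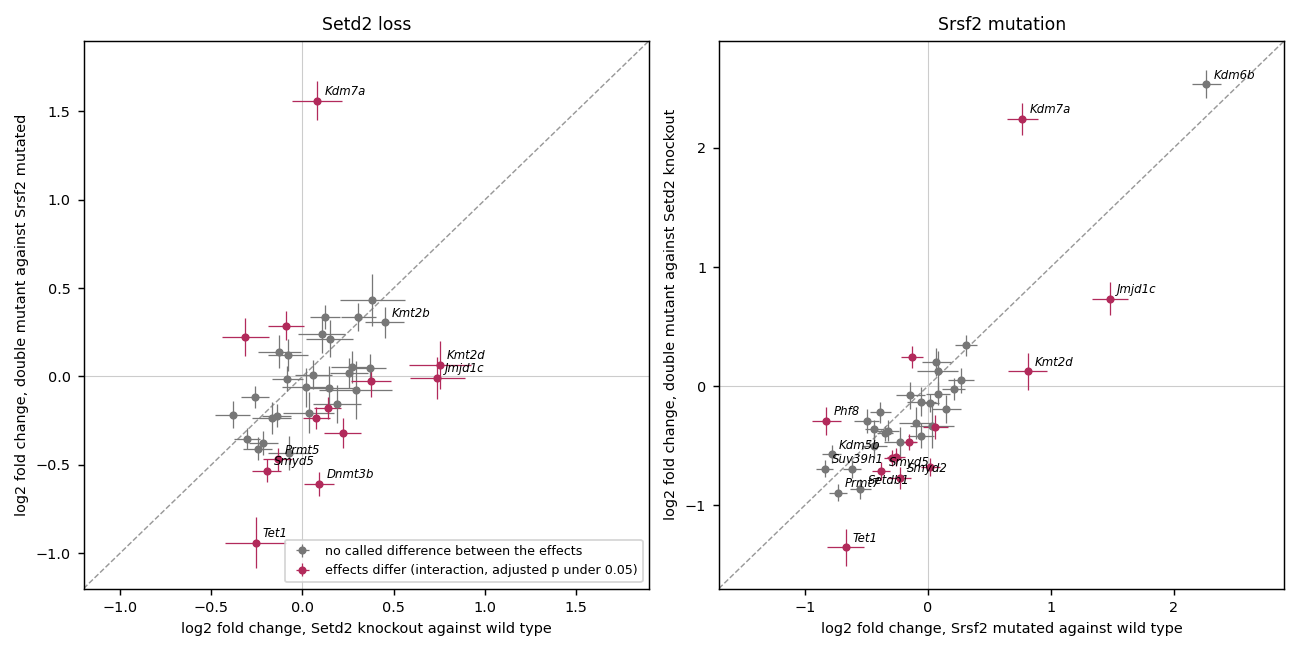
Each point is 1 of the 39 enzymes with its SE, on log2 scales: left, the effect of Setd2 loss in Srsf2 mutated libraries against that in wild type; right, the effect of the Srsf2 mutation in Setd2 knockout libraries against that in wild type. Red marks the 13 enzymes whose effects differed by the interaction test, and Kdm7a lies farthest above the dashed line of equal effects, while Kdm6b stands near that line at the top right.

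Genes that work with these enzymes were examined in 8 lists. Beside them, 18.7% of all tested genes were higher and 19.9% lower in Setd2 knockout against wild type. In Srsf2 mutated against wild type these shares were 28.5% and 27.8%. In the double mutant they were 17.8% and 15.9% against Srsf2 mutated, and 26% and 25.8% against Setd2 knockout. Of 12 tested subunits of the COMPASS and MLL complexes, 8 were lower and 2 higher in Srsf2 mutated against wild type, and 5 lower and 1 higher in Setd2 knockout against wild type. Men1, the menin that anchors KMT2A, stood at 110.0 ± 9.22, 80.1 ± 3.78, 64.3 ± 3.88 and 53.5 ± 1.67 CPM in wild type, Setd2 knockout, Srsf2 mutated and double mutant libraries, and it was lower in Srsf2 mutated than in wild type (-0.77, adjusted p = 6.09e-07). Of 10 partners of DNA methylation, 6 were lower and 1 higher in Srsf2 mutated against wild type, and 4 lower and 1 higher in double mutant against Srsf2 mutated. Uhrf1, which brings DNMT1 to new DNA, stood at 445 ± 26.1, 349 ± 6.20, 359 ± 15.4 and 277 ± 5.02 CPM and fell from Srsf2 mutated to double mutant (-0.38, adjusted p = 0.000123). Hells, a remodeler needed for DNA methylation, stood at 108 ± 7.63, 114 ± 6.03, 109.8 ± 3.14 and 74.6 ± 4.61 CPM, lowest in the double mutant (-0.56, adjusted p = 9.57e-06 against Srsf2 mutated).

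Of 9 LSD1 partners, 2 were higher and 3 lower in Srsf2 mutated against wild type, and 1 higher and 6 lower in double mutant against Setd2 knockout. Gfi1, a repressor that recruits LSD1 and is among the early neutrophil markers, stood at 210.0 ± 6.30, 135 ± 3.86, 49.3 ± 2.12 and 42.9 ± 2.22 CPM. It was lower in Srsf2 mutated than in wild type (-2.09, adjusted p = 1.72e-12). Its erythroid paralog Gfi1b stood at 36.0 ± 2.82, 95.1 ± 3.03, 8.84 ± 0.666 and 35.6 ± 1.89 CPM, higher where Setd2 was lost (1.40, adjusted p = 3.57e-08 without and 2.01, adjusted p = 4.87e-11 with the Srsf2 mutation) and lower with the mutation (-2.03, adjusted p = 5.59e-11). Of 9 partners of H3K9 methylation, 5 were higher and 1 lower in Setd2 knockout against wild type, 2 higher and 4 lower in Srsf2 mutated against wild type, and 0 higher and 6 lower in double mutant against Setd2 knockout. Trim28, which brings SETDB1 to DNA, stood at 886 ± 43.6, 679.6 ± 7.02, 604 ± 35.4 and 415 ± 13.5 CPM, and the heterochromatin protein gene Cbx5 at 267 ± 1.28, 364 ± 21.7, 165 ± 14.8 and 188 ± 5.68 CPM. Cbx5 rose in Setd2 knockout (0.45, adjusted p = 0.000619) and fell in Srsf2 mutated libraries (-0.70, adjusted p = 1.46e-06), the same directions as Setdb1. The mean of Trim28 was below wild type in both, so in Setd2 knockout it went in the direction opposite to Setdb1.

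Of 7 PRMT partners, 3 were higher and 2 lower in Srsf2 mutated against wild type. Btg1, an antiproliferative protein that binds PRMT1, stood at 108 ± 0.386, 86.7 ± 3.25, 432 ± 23.7 and 644 ± 2.98 CPM, higher with the mutation (adjusted p = 2.91e-12 in Srsf2 mutated against wild type, and 2.89, adjusted p = 3.19e-14 in double mutant against Setd2 knockout). Of 7 DOT1L and elongation partners, 2 were higher and 1 lower in Srsf2 mutated against wild type, and 3 higher and 3 lower in double mutant against Setd2 knockout. Mllt1, a partner of DOT1L that is fused to KMT2A in leukemia, stood at 138 ± 5.99, 105 ± 4.67, 81.5 ± 6.11 and 71.9 ± 1.59 CPM. It was lower in Srsf2 mutated than in wild type (-0.76, adjusted p = 4.16e-07). Of 12 genes of methyl donor and cofactor supply, 10 were lower and 1 higher in Srsf2 mutated against wild type, and 9 lower and 2 higher in double mutant against Setd2 knockout. Idh1, a source of 2-oxoglutarate for the JmjC and TET enzymes, stood at 112 ± 2.44, 77.9 ± 1.67, 64.9 ± 1.43 and 66.8 ± 4.22 CPM and was lower in Setd2 knockout (-0.52, adjusted p = 9.84e-05) and Srsf2 mutated libraries (-0.79, adjusted p = 1.80e-07) than in wild type.

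Of 22 tested methyltransferases and demethylases outside the 39, 6 were higher and 5 lower in Setd2 knockout against wild type, 3 higher and 9 lower in Srsf2 mutated against wild type, and 3 higher and 3 lower in double mutant against Srsf2 mutated. The list includes Kdm5d of the Y chromosome, which was at 0 in wild type and Setd2 knockout libraries. Tet2, a TET enzyme often mutated in myeloid neoplasms, stood at 27.7 ± 1.63, 69.8 ± 4.59, 78.4 ± 20.5 and 85.5 ± 1.80 CPM. It rose in Setd2 knockout (1.33, adjusted p = 1.85e-05) and Srsf2 mutated libraries (1.501, adjusted p = 1.04e-06), and double mutant libraries differed from Srsf2 mutated ones by 0.13, adjusted p = 0.527. Its interaction was -1.21, adjusted p = 0.000444. Kdm5c, an X-linked relative of Kdm5b, stood at 241 ± 5.70, 161 ± 0.960, 134 ± 17.5 and 162 ± 3.97 CPM, lower than wild type in Setd2 knockout (-0.58, adjusted p = 0.000201) and Srsf2 mutated libraries (-0.85, adjusted p = 6.11e-07), where sex-linked state differed as well.

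All 39 enzymes were placed on GRCm38 by GENCODE M21, 2 of them (Suv39h1 and Phf8) on the X chromosome. Exons of 19 shared bases with another annotated gene, and the share was over 10% for 6: Setd1a (52.3%), Smyd2 (30.0%), Kdm3b (24.6%), Prmt6 (23.4%), Carm1 (21.1%) and Suv39h1 (14.6%). Whether the counting used strand is not given in the sources used here, so the values of these 6 are uncertain.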

How the data were processed

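Bulk mRNA libraries of 10 HSPC samples in 4 genotypes were analysed, and the 3 single-cell samples were not analysed here. The authors deposited raw read counts and FPKM per Ensembl gene in 3 tables, per the file headers, and counts of the 5 libraries held in 2 tables were identical. The deposited FPKM follow from the counts, the gene lengths in the tables and the library totals, so they carry no correction for composition and were compared only between genes of a group. The submitters' processing notes list HISAT2 2.0.5, STAR 2.6.1a, HTSeq 0.9.1, featureCounts 2.0.1, SAMtools 1.7 and DESeq2 1.22.2 without a role, and the builds GRCm38 and mm10 among others. Strandedness is not given in the sources used here.

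The 39 genes, the related lists and the marker lists were chosen with earlier results of these data known. Genes were kept by edgeR's filterByExpr (minimum count 10), scaled by TMM and fitted with 1 term per genotype over all 10 libraries in edgeR 4.0.16 (R 4.3.3). Quasi-likelihood tests of 4 pairwise comparisons and the interaction were adjusted by Benjamini-Hochberg over all tested genes, with 0.05 as the threshold. CPM are TMM-scaled, SD are over libraries, and log2 fold changes come from the fit. Values in each library are given for enzymes called with an absolute log2 fold change of at least 0.8, those called in the interaction and the 3 largest in each direction of a comparison. Of the related lists, the 3 genes of smallest adjusted p in a comparison could be named. With library totals of 32117387 to 50445434 counts, the number of libraries limits precision more than counting does. Alternatives were median-of-ratios and upper-quartile scaling, no filter, a stricter filter (minimum count 50), fits of only the groups compared, DESeq2 1.42.0, a replicate block and leaving out each library, 17 in all and 16 for the interaction. The scripts were tested on simulated data. Positions are from GENCODE M21.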

Additional observations from a re-analysis of the deposited data

Results flagged for a closer look

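For 13 of the 39 enzymes the effect of Setd2 loss differed between Srsf2 mutated and wild type cells by the test of the difference itself, the interaction in edgeR's quasi-likelihood test with Benjamini-Hochberg adjustment (33.3%, where 31.9% of all tested genes were called). The difference in log2 effect was positive for Kdm7a at 1.48 (adjusted p = 8.83e-06), Phf8 at 0.54 (adjusted p = 0.0231) and Kdm4c at 0.38 (adjusted p = 0.0325). It was negative for Jmjd1c at -0.75 (adjusted p = 0.00700), Dnmt3b at -0.70 (adjusted p = 0.000124), Kmt2d at -0.69 (adjusted p = 0.0244) and Tet1 at -0.68 (adjusted p = 0.0265). Smyd2 had -0.54 (adjusted p = 0.00510), Dot1l -0.40 (adjusted p = 0.0394) and Smyd5 -0.34 (adjusted p = 0.0207). Prmt5 had -0.33 (adjusted p = 0.0213), Kdm1a -0.32 (adjusted p = 0.0195) and Ehmt1 -0.31 (adjusted p = 0.0240). Sex-linked state differs between wild type and every other group, so it and the interaction cannot be told apart. Groups of 2 and 3 libraries are too small for a test of single libraries that stand apart.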

How the results depend on the processing

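The direction of each called enzyme was the same under the alternatives run, 17 for each pairwise comparison and 16 for the interaction, which needs all groups, and 4 of 11, 18 of 23, 13 of 19, 21 of 26 and 4 of 13 calls were kept under all of them for Setd2 loss alone, the Srsf2 mutation alone, the double mutant against Srsf2 mutated, the double mutant against Setd2 knockout and the interaction. With only the groups compared in the fit, 17 enzymes were called in Setd2 knockout against wild type instead of 11. Leaving out 1 library gave 4 to 18 calls there, with 7 without Setd2 knockout replicate 2 or without wild type replicate 1, 19 to 29 in Srsf2 mutated against wild type, 14 to 23 and 22 to 32 in the comparisons of the double mutant with Srsf2 mutated and Setd2 knockout, and 6 to 19 in the interaction, with 7 without Setd2 knockout replicate 1 and 8 without double mutant replicate 1. The lone library of a group of 2 was then assumed to vary like the other groups. The lowest counts were without Setd2 knockout replicate 1 in both comparisons of Setd2 knockout and without wild type replicate 2 in the interaction, and the highest were without Srsf2 mutated replicate 3 in every comparison; the cause was not tested. Upper-quartile scaling moved the median log2 fold change of all genes from 0.08 to 0.18 in Srsf2 mutated against wild type and from -0.07 to -0.21 in the interaction.

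Signs that turned belonged to differences that had not passed the test. Kdm7a in Setd2 knockout against wild type ranged over -0.0173 to 0.193 on the log2 scale as single libraries were left out, Kmt2a in Srsf2 mutated against wild type over -0.12 to 0.28, Dnmt3b there over -0.000610 to 0.0606, Kmt2d in double mutant against Srsf2 mutated over -0.14 to 0.23 and Jmjd1c there over -0.18 to 0.12. Jmjd1c in double mutant against Srsf2 mutated was also 0.00725 with the stricter filter and 0.0148 with the replicate block.

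Correlations of deviations between same-numbered libraries ran from -0.085 to 0.087. They cannot show whether the replicate numbers pair the libraries, since groups hold 2 or 3 libraries and deviations in a group of 2 mirror each other. With the replicate block the counts were 13, 23, 19, 25 and 14, and among called enzymes Smyd2 in Srsf2 mutated against wild type and Phf2 in double mutant against Setd2 knockout lost their call. Counts per gene were high, so the 2 or 3 libraries per group, not depth, limit these comparisons. Strand, separate mice and cell makeup are not known for these libraries.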
